A study of Mus with 18 samples.

Results

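The genes described here are 8 components of the mammalian circadian clock: Arntl (also called Bmal1, ENSMUSG00000055116), Per1 (ENSMUSG00000020893), Per2 (ENSMUSG00000055866), Cry1 (ENSMUSG00000020038), Ciart (ENSMUSG00000038550), Nr1d1 (ENSMUSG00000020889), Nr1d2 (ENSMUSG00000021775) and Dbp (ENSMUSG00000059824). The genes are set by a list of gene IDs. The list itself holds no measured value, although it was chosen with earlier results of these data known. They are 8 of the 55416 gene IDs counted in the series, and all 8 passed the filter on low counts in every comparison. The series holds 18 RNA sequencing libraries of lens epithelial cells (LECs) from mice given as C57BL/6. The paper's strain name for the Egr1KO stock, however, also includes a strain other than C57BL/6. Its Cre line was obtained on FVB/N and backcrossed to C57BL/6. Differences of strain background between the genotypes could therefore not be told apart from genotype. Wild type (WT), Egr1KO and FosBcKO animals were sampled at 0 h and at 6 h post cataract surgery (PCS), the time after the lens fiber cells were removed, which makes 6 groups of 3 libraries. Mice were 3 to 5 months old, of both sexes, and each library pooled 5 lens capsules with the cells attached to them. Egr1KO mice lack functional Egr1 in all tissues, through a neo cassette placed in exon 2 of both copies. FosBcKO mice carry Fosb alleles with floxed exons 2 and 3, which the MLR10 Cre transgene deletes in the lens under an alpha A crystallin promoter, so their other tissues keep Fosb. Whether WT mice carried the Cre transgene is not given in the sources used here.

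The design bears on clock genes in a direct way. In every mouse the fiber cells of 1 eye were removed first, the other eye was operated 6 h later, and both capsules were then taken at sacrifice. Capsules of the 0 h and 6 h groups were thus collected at the same hour from mice operated in both eyes, although which 0 h and 6 h libraries hold capsules of the same mice is not given, and the 0 h capsules also came from animals that had undergone surgery on the other eye. The hour of collection in the light-dark cycle, and whether it was the same in the 3 genotypes, are not given in the sources used here.

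The clock is a feedback loop of transcription that runs in nearly every cell. BMAL1, the product of Arntl, pairs with CLOCK and activates genes through E-boxes, among them the Per and Cry genes, Nr1d1, Nr1d2, Dbp and Ciart. PER and CRY proteins return to the nucleus and block BMAL1 and CLOCK. The receptors encoded by Nr1d1 and Nr1d2 (REV-ERB alpha and beta) repress Arntl and Cry1. Arntl and E-box genes such as Dbp and Nr1d1 thus normally peak at opposite times of day. Cry1 is under both controls and is left out of this statement. Per1 and Per2 can also be switched on within an hour by cAMP and growth factor signals and by glucocorticoids, which is how tissues reset their clocks.

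Libraries held between 9609295 and 13871592 read pairs counted to genes, and levels are given below as normalised CPM, counts relative to library size after scaling by the trimmed mean of M values (TMM). No member had fewer than 64 read pairs in any library. CPM is not corrected for gene length, so levels are compared only between libraries. Egr1 and Fosb were not lower in the libraries labelled as their knockouts. At 6 h Egr1 stood at 1985, 1613 and 1259 CPM in WT and 4978, 2105 and 3841 in Egr1KO, and Fosb at 1493, 910 and 672 CPM in WT and 1606, 1509 and 1725 in FosBcKO. Gene-level counts take in exons outside those altered and so do not check the genotype labels, and reads by exon were not analysed here. The lens epithelial markers Pax6, Foxe3, Prox1 and Gja1, the 4 of 8 listed that had a name, were present in every library, with sums of 1951 to 2332 CPM at 0 h and 820 to 2007 CPM at 6 h. Markers of other cell types moved with time, and at 6 h some also differed by genotype. The rod genes Sag and Pde6b, 2 of 5 retina markers, summed to between 101 and 359 CPM at 0 h and between 595 and 3368 CPM at 6 h. Sums of 4 of 6 pigment cell markers ran from 14.3 to 93.7 CPM at 0 h and from 34.5 to 344 CPM at 6 h, those of both endothelial markers from 0 to 1.58 and from 1.92 to 15.9 CPM, and those of both red blood cell markers from 0.854 to 55.1 and from 55.8 to 255 CPM. The 5 named of 8 leukocyte markers summed to between 1.45 and 17.4 CPM at 0 h and between 11.3 and 30.6 CPM at 6 h, and 2 of them, Ptprc and Cd68, were called higher over all genotypes (edgeR FDR = 0.00655 and 0.00137). The smooth muscle gene Myh11, 1 of 3 such markers, ran from 1.00 to 29.3 and from 4.67 to 64.0 CPM and was also called higher (3.35-fold, FDR = 0.0155). No listed marker that had a name was at 0 in a whole group. In FosBcKO against WT at 6 h, 4 of the 5 leukocyte markers and 1 of the 4 pigment cell markers were called higher and 1 of the 2 rod markers lower. In Egr1KO against WT 0 of the markers tested were called at either time. Not tested there, for low counts, were Itgam at both times, Adgre1 at 6 h, and Pecam1, Cdh5 and Hba-a1 at 0 h. Fold changes of the tested markers at 6 h ran from 0.581 (Pde6b, exact test FDR = 0.564) to 2.91 (Ptprc, FDR = 0.19). Because these are bulk samples, fewer cells of a type and less RNA per cell cannot be told apart, and the part of other cell types in the clock gene results was not tested.

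The clock genes were compared between 6 h and 0 h PCS to see whether their levels moved with lens injury at a matched hour of collection. A gene was called where edgeR's quasi-likelihood F-test, adjusted over all genes tested after Benjamini and Hochberg, gave a false discovery rate (FDR) up to 0.05. In WT, Cry1 rose and Dbp and Ciart fell, 3 of 8 members, where 26.2% of the 15440 genes tested were called. In Egr1KO the called members were again Cry1, which rose, and Dbp and Ciart, which fell, with 21.2% of genes called. In FosBcKO, 0 of 8 members passed, with 21.8% of genes called. Cry1, Dbp and Ciart had unadjusted p under 0.05 there and fold changes of the same sign as in WT, edgeR's exact test also called 0 members, and DESeq2 called 1. With the replicate number as a block 2 members (Cry1 and Ciart) were called in FosBcKO, 4 in WT, where Arntl was added, and 4 in Egr1KO, where Per1 was added. The shares of all genes above belong to the quasi-likelihood F-test without a block. They are not a background for the counts under the block, the exact test or DESeq2. With the further demand of a more than 2-fold change, 1 member (Ciart) remained in WT against 17.1% of genes, 2 (Cry1 and Ciart) in Egr1KO against 12% and 0 in FosBcKO against 13.1%.

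Fitting the time effect over all 18 libraries, with genotype as a covariate, 5 of 8 members were called, against 51.5% of the 17469 genes tested. Cry1 and Arntl rose, 2 of 8 against 28.9% of genes called higher, and Dbp, Nr1d1 and Ciart fell, 3 of 8 against 22.6% of genes called lower. These shares lie near the background, so the number of clock genes that moved is not particular to them. Ciart was the 1 member that also changed more than 2-fold in this fit, against 22.1% of genes. The median log2 fold change over the 8 members was 0.02, beside 0.08 over all genes tested. The libraries of the 6 h and 0 h groups did not overlap for 5 members in WT (48.7% of genes), 4 in Egr1KO (42.9%) and 4 in FosBcKO (43.9%).

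**Figure D1:**
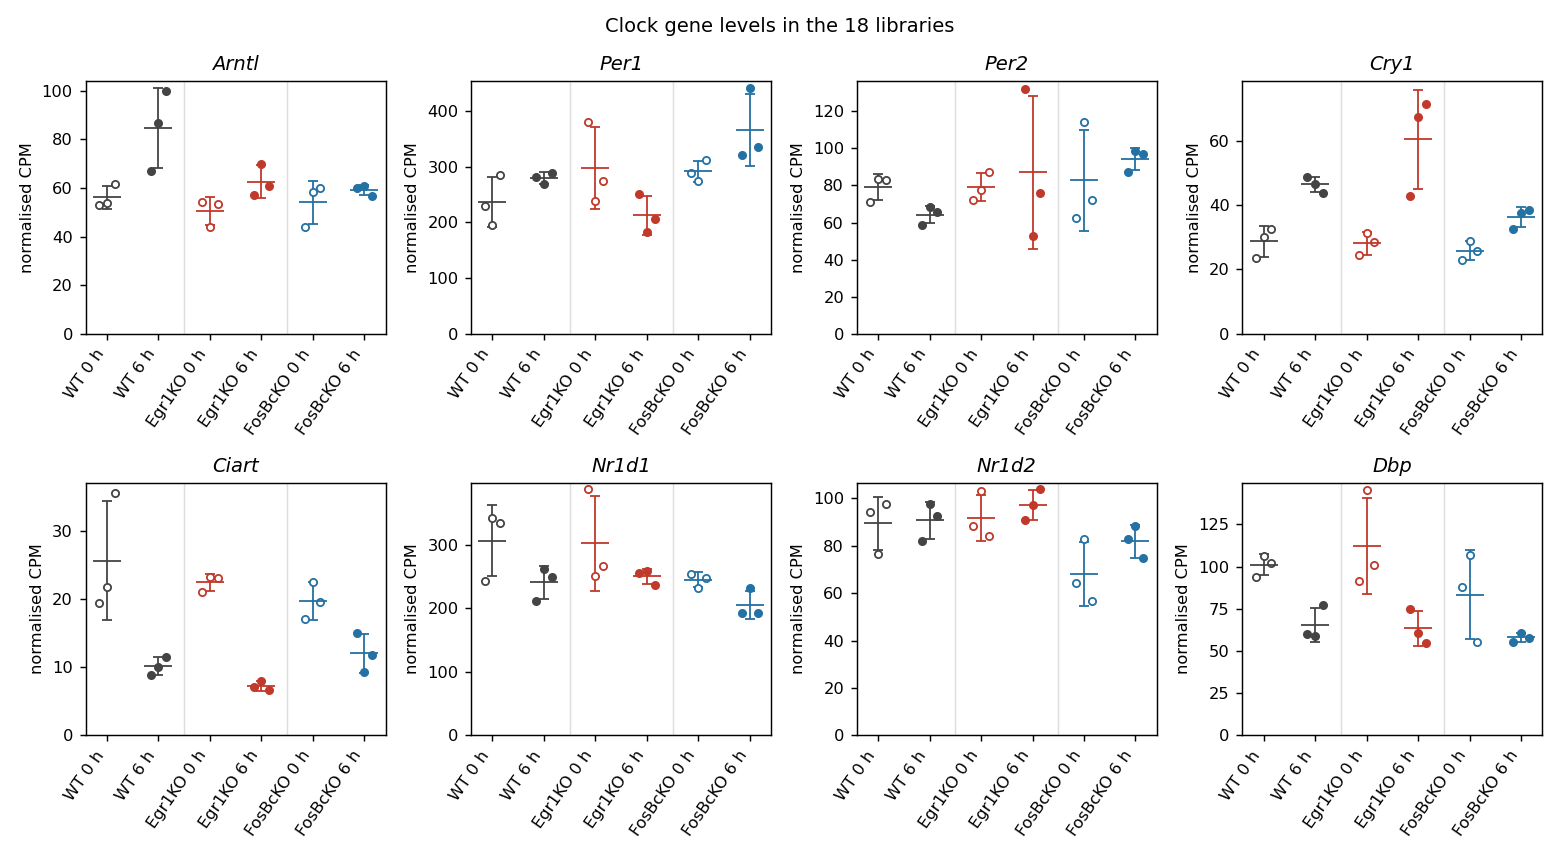
Normalised CPM of each clock gene (y axis, linear from 0) in the 6 groups (x axis). Circles are libraries 1 to 3 from left to right, open at 0 h and filled at 6 h, and bars give the mean and SD (n = 3). Cry1 lies higher at 6 h and Ciart lower at 6 h in all 3 genotypes with no overlap.

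**Figure D2:**
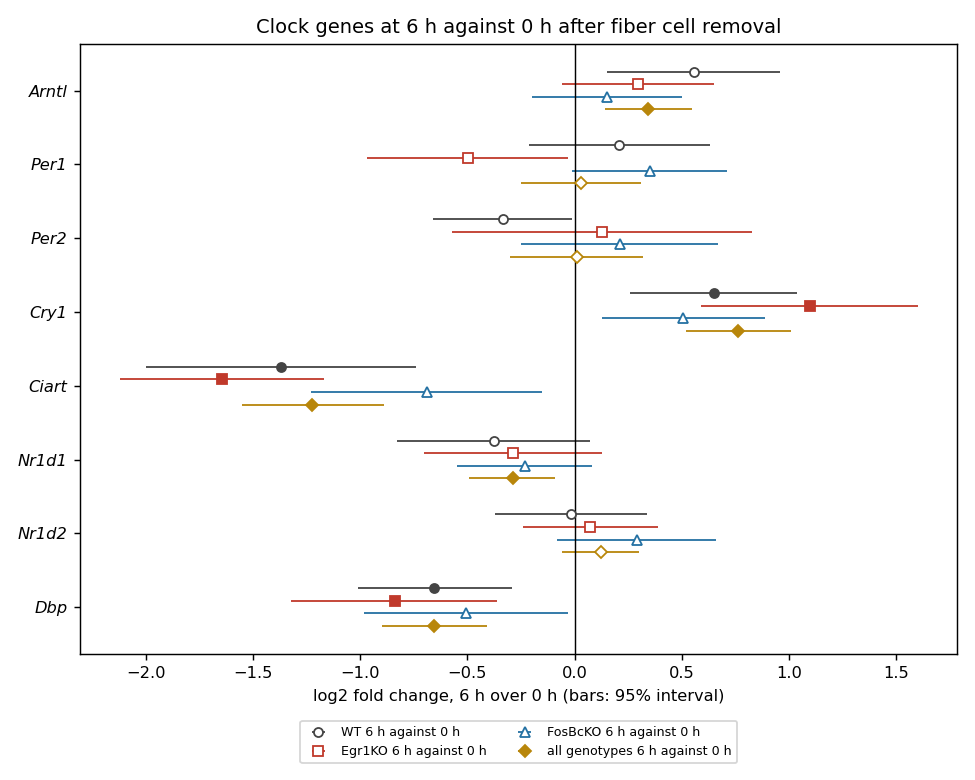
Log2 fold change of each clock gene at 6 h over 0 h (x axis) in WT (circles), Egr1KO (squares), FosBcKO (triangles) and all genotypes together (diamonds), with 95% intervals from the quasi-likelihood fit. Filled symbols passed an FDR of 0.05, as Cry1, Dbp and Ciart did in WT and Egr1KO.

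Arntl, the activator, was higher at 6 h in the fit over all genotypes, where it rose by 0.34 ± 0.10 on the log2 scale (SE, edgeR FDR = 0.00635), a 1.27-fold change. In WT its CPM was 53.1, 53.9 and 61.5 at 0 h and 67.1, 86.8 and 100 at 6 h. Each WT library at 6 h thus lay above each at 0 h, by a log2 fold change of 0.56 ± 0.18 (SE), and the FDR of 0.05004 fell just outside the threshold. Arntl in WT was called under 8 of the 14 alternatives. Its FDR was 0.0442 in edgeR's exact test, 0.0332 in DESeq2 and 0.012 in 1 fit of all libraries, and with the replicate number as a block the change was 0.54 with an edgeR FDR of 0.0305. It was 0.0479 with RLE size factors, 0.0486 without the filter on low counts and 0.048 with scaling that left out the 10 most abundant genes. Without WT 6 h replicate 1 the FDR was 0.0359, and it was between 0.0684 and 0.163 without any other WT library. In Egr1KO the CPM was 54.4, 43.8 and 53.4 at 0 h and 57.0, 70.0 and 60.9 at 6 h, again without overlap, and the log2 fold change of 0.30 had an FDR of 0.197. In FosBcKO it was 44.1, 58.4 and 59.9 at 0 h and 60.0, 60.7 and 56.9 at 6 h. These ranges overlapped, and the log2 fold change of 0.15 (95% interval -0.20 to 0.50) had an FDR of 0.52. Arntl had its highest group mean in WT at 6 h, 84.7 ± 16.5 (SD, n = 3), and its lowest in Egr1KO at 0 h, 50.5 ± 5.82, and all neighbours in the order of the 6 groups overlapped. The FDR over all genotypes was 0.0594 when genes of low count were not filtered out.

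Per1 and Per2, the negative limb of the loop and its most signal-responsive genes, were not called in any genotype. Per1 had 229, 196 and 285 CPM at 0 h and 282, 269 and 289 at 6 h in WT. The WT ranges overlapped, and the log2 fold change was 0.21 (95% interval -0.21 to 0.63, edgeR FDR = 0.432). In Egr1KO Per1 stood at 381, 238 and 275 CPM at 0 h and 252, 183 and 206 at 6 h. The log2 fold change there was -0.50 (95% interval -0.97 to -0.03), on the lower side at 6 h, with an FDR of 0.117. Leaving out Egr1KO 6 h replicate 1 gave -0.65 with an FDR of 0.0312, the replicate block -0.48 with 0.0493, and no filter on low counts -0.53 with 0.0246. In FosBcKO the CPM was 288, 275 and 312 at 0 h and 322, 441 and 336 at 6 h, with all 6 h libraries above all 0 h libraries, and the log2 fold change of 0.35 had an FDR of 0.144. Over all genotypes the log2 fold change of Per1 was 0.03 (95% interval -0.25 to 0.31, FDR = 0.859), so that a rise of more than 0.31 on the log2 scale lay outside the interval. Per1 had its highest mean in FosBcKO at 6 h (366 ± 64.9 CPM, SD, n = 3) and its lowest in Egr1KO at 6 h (213 ± 35.2 CPM), and neighbours in this order overlapped throughout.

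Per2 differed little between the times over all genotypes. In WT it had 70.9, 83.4 and 82.7 CPM at 0 h and 58.9, 68.2 and 65.6 at 6 h. All WT libraries at 6 h lay below those at 0 h, with a log2 fold change of -0.33 and an edgeR FDR of 0.113. In Egr1KO the CPM was 72.1, 77.4 and 87.0 at 0 h and 132, 52.5 and 75.9 at 6 h, the widest spread of any Per2 group (SD of 41.1 CPM, n = 3), with replicate 1 at the top. In FosBcKO it was 62.4, 114 and 72.0 at 0 h and 87.5, 98.8 and 96.7 at 6 h. Ranges overlapped in both knockouts, and the log2 fold changes were 0.13 (FDR = 0.783) and 0.21 (FDR = 0.489). Without Egr1KO 6 h replicate 1 the Egr1KO value turned to -0.33 (FDR = 0.182), the sign it had in WT, and leaving out each library in turn moved the FosBcKO value between 0.03 and 0.44. Over all genotypes the change was 0.01 (95% interval -0.30 to 0.32, FDR = 0.954), and from -0.17 to 0.08 with 1 library left out. The mean of WT at 6 h, 64.3 ± 4.81 CPM, was the lowest of the 6 groups and the 1 that did not overlap with its neighbour in the order.

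Cry1, the cryptochrome that represses BMAL1 and CLOCK, rose. In WT it had 23.4, 30.2 and 32.7 CPM at 0 h and 48.6, 46.7 and 43.8 at 6 h. In Egr1KO it had 24.4, 31.3 and 28.5 CPM at 0 h and 42.8, 67.5 and 71.3 at 6 h. In FosBcKO it had 22.9, 28.9 and 25.6 CPM at 0 h and 32.6, 37.5 and 38.4 at 6 h. No 6 h library overlapped with the 0 h libraries of its genotype, although in FosBcKO the lowest library at 6 h lay below the highest WT library at 0 h. Of all genes, 8.87% were higher in this way in all 3 genotypes, and Cry1 was the 1 member among them. The log2 fold change was 0.65 ± 0.17 in WT (SE, edgeR FDR = 0.0257), 1.10 ± 0.22 in Egr1KO (FDR = 0.0137) and 0.51 ± 0.17 in FosBcKO (FDR = 0.0564), and 0.76 ± 0.12 over all genotypes (FDR = 3.2e-05), a 1.7-fold rise. With the replicate block the FosBcKO change was 0.51 with an FDR of 0.0385, inside the threshold. The WT call was lost without WT 0 h replicate 1 (FDR = 0.0965), WT 0 h replicate 2 (0.0714) or WT 6 h replicate 1 (0.0798). The Egr1KO call was lost without Egr1KO 0 h replicate 1 (FDR = 0.0626), 0 h replicate 3 (0.0717) or 6 h replicate 3 (0.0606). The call over all genotypes held without any 1 of the 18 libraries, with an FDR of at most 0.000247. Egr1KO at 6 h had the highest mean (60.5 ± 15.4 CPM, SD, n = 3), and WT at 6 h (46.4 ± 2.39) and FosBcKO at 6 h (36.2 ± 3.16) were the neighbours in the order whose libraries did not overlap.

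Ciart, which encodes CHRONO, a further repressor of BMAL1 and CLOCK and an E-box gene, fell. Its CPM in WT was 19.5, 21.9 and 35.7 at 0 h and 8.87, 10.1 and 11.6 at 6 h. In Egr1KO it was 21.1, 23.3 and 23.1 at 0 h and 7.07, 8.02 and 6.67 at 6 h. In FosBcKO it was 17.1, 22.6 and 19.6 at 0 h and 15.0, 9.30 and 11.8 at 6 h. Every library at 6 h, whatever its genotype, lay below every library at 0 h, the closest being FosBcKO 6 h replicate 1. Being lower in this way within all 3 genotypes applied to 8.45% of all genes, and Ciart was the 1 member among them. The log2 fold change was -1.37 ± 0.27 in WT (SE, edgeR FDR = 0.00993), -1.65 ± 0.21 in Egr1KO (FDR = 0.00312), -0.69 ± 0.24 in FosBcKO (FDR = 0.0669) and -1.22 ± 0.16 over all genotypes (FDR = 5.18e-06), to 0.429 of the 0 h level. The FosBcKO value was -0.70 with an FDR of 0.0481 with the replicate block, and -0.93 with an FDR of 0.0425 without FosBcKO 6 h replicate 1. The WT and Egr1KO calls held without any 1 library of those groups, with FDRs of at most 0.042 and 0.0302. Ciart had the widest range of group means among the 8 genes, 3.54-fold, from 25.7 ± 8.76 CPM in WT at 0 h to 7.25 ± 0.693 CPM in Egr1KO at 6 h (SD, n = 3).

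Nr1d1 and Nr1d2, the repressors of Arntl, differed from each other. Nr1d1 had 242, 342 and 334 CPM at 0 h and 212, 262 and 249 at 6 h in WT. In Egr1KO it had 387, 251 and 267 CPM at 0 h and 256, 258 and 236 at 6 h. In FosBcKO it had 254, 232 and 247 CPM at 0 h and 192, 231 and 193 at 6 h. The 6 h mean lay below the 0 h mean in each genotype, and the libraries were separate in FosBcKO only. Within a genotype the log2 fold changes of -0.38, -0.29 and -0.23 had edgeR FDRs of 0.184, 0.284 and 0.261. Over all genotypes Nr1d1 fell by 0.29 ± 0.10 on the log2 scale (SE, FDR = 0.0157), to 0.818 of the 0 h level, and this call held without any 1 library (FDR of at most 0.0427). Nr1d1 overlaps Thra on the opposite strand at its 3' end. The library kit keeps strand, but the strand setting used in counting is not given in the sources used here, so part of its counts may belong to Thra.

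Nr1d2 had 94.3, 76.6 and 97.4 CPM at 0 h and 82.0, 97.4 and 92.3 at 6 h in WT, and 88.1, 103 and 83.9 CPM at 0 h and 90.9, 97.1 and 104 at 6 h in Egr1KO. In FosBcKO it had 64.4, 82.8 and 56.6 CPM at 0 h and 82.6, 88.3 and 74.6 at 6 h. Groups overlapped in each genotype, with log2 fold changes of -0.02, 0.07 and 0.29 and edgeR FDRs of 0.949, 0.729 and 0.237. Over all genotypes the change was 0.12 (95% interval -0.06 to 0.30, FDR = 0.236). Its lowest group mean, 67.9 ± 13.4 CPM (SD, n = 3) in FosBcKO at 0 h, overlapped with the next.

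Dbp, a PAR bZIP transcription factor that is the classical output gene of BMAL1 and CLOCK, fell. In WT it had 94.0, 106 and 102 CPM at 0 h and 60.3, 58.9 and 77.3 at 6 h, and in Egr1KO 91.3, 145 and 101 CPM at 0 h and 74.7, 60.4 and 54.9 at 6 h. In FosBcKO it had 87.6, 107 and 55.4 CPM at 0 h and 55.5, 60.8 and 57.6 at 6 h. The groups were separate in WT and Egr1KO and overlapped in FosBcKO, where 0 h replicate 3 was the lowest of the 6 libraries. The log2 fold change was -0.65 ± 0.16 in WT (SE, edgeR FDR = 0.0193), -0.84 ± 0.21 in Egr1KO (FDR = 0.0269), -0.50 ± 0.22 in FosBcKO (FDR = 0.116) and -0.66 ± 0.12 over all genotypes (FDR = 0.000155), to 0.635 of the 0 h level. Without FosBcKO 0 h replicate 3 the FosBcKO value was -0.78 with an FDR of 0.0319. The calls within a genotype were narrow. The WT call was lost without WT 0 h replicate 1 (FDR = 0.0503), 2 (0.0672) or 3 (0.0616) or without WT 6 h replicate 1 (0.0746), and the Egr1KO call without Egr1KO 0 h replicate 1 (0.0506), 2 (0.0826) or 3 (0.0759) or without 6 h replicate 3 (0.101). The call over all genotypes held without any 1 library (FDR of at most 0.00041).

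Ratios of counts within a library do not depend on scaling between libraries. Cry1 gave 1.20, 1.38 and 0.915 reads per Ciart read in WT at 0 h and 5.47, 4.62 and 3.78 at 6 h. In Egr1KO the ratio was 1.15, 1.34 and 1.23 at 0 h and 6.06, 8.42 and 10.7 at 6 h, and in FosBcKO 1.34, 1.28 and 1.30 at 0 h and 2.17, 4.03 and 3.25 at 6 h. The 9 libraries at 0 h thus spanned 0.915 to 1.38 and the 9 libraries at 6 h 2.17 to 10.7, with no overlap. Arntl gave 0.565, 0.509 and 0.604 reads per Dbp read in WT at 0 h and 1.11, 1.47 and 1.29 at 6 h, and in Egr1KO 0.595, 0.303 and 0.531 at 0 h and 0.762, 1.16 and 1.11 at 6 h. These did not overlap. In FosBcKO the ratio was 0.503, 0.545 and 1.08 at 0 h and 1.08, 0.999 and 0.987 at 6 h, so 0 h replicate 3 stood among the 6 h libraries. As these pairs were taken from genes already seen to move in opposite directions, the ratios are given without a test.

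**Figure D3:**
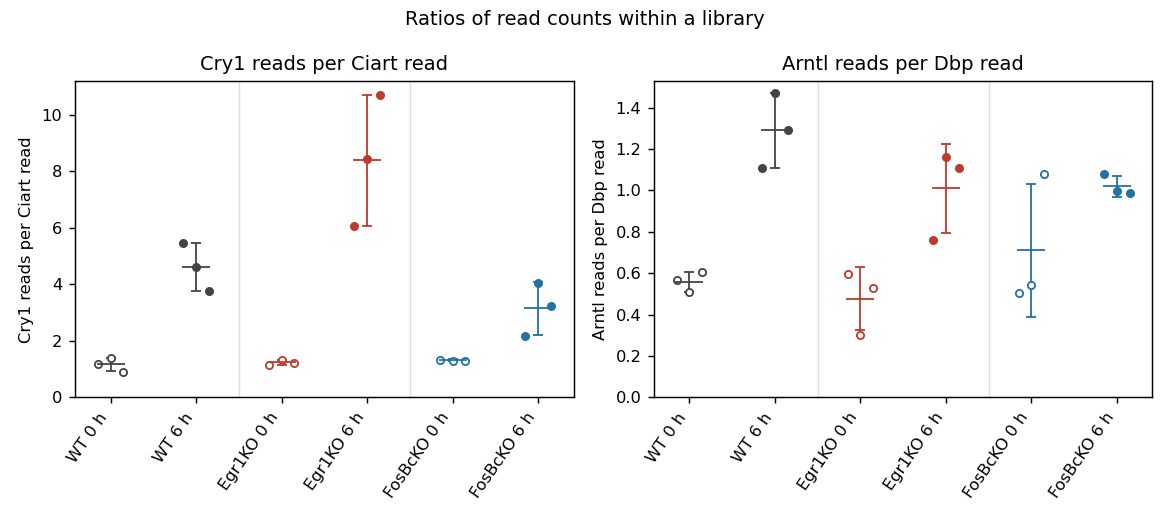
Reads of Cry1 per read of Ciart (left) and of Arntl per read of Dbp (right) in each library (y axes, linear from 0, not corrected for gene length) over the 6 groups (x axis). Circles are libraries, open at 0 h and filled at 6 h, and bars give the mean and SD (n = 3). The Cry1 to Ciart ratio is at most 1.38 at 0 h and at least 2.17 at 6 h.

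Each knockout was next compared with WT at the same time, to see whether loss of Egr1 or Fosb altered clock gene levels. By edgeR's exact test 0 of 8 members were called in any of these 4 comparisons, where 0.543% of genes were called for Egr1KO at 0 h, 0.743% for Egr1KO at 6 h, 0.392% for FosBcKO at 0 h and 6.26% for FosBcKO at 6 h. The quasi-likelihood F-test also called 0 members, and DESeq2 called 1, Per2 in FosBcKO at 6 h. The shares above belong to the exact test only. Unadjusted p fell under 0.05 for 0, 0, 1 (Nr1d2) and 1 (Per2) members. Libraries of knockout and WT were separate for 0 members at 0 h in either knockout (17.4% of genes for Egr1KO and 14.0% for FosBcKO), for 2 members in Egr1KO at 6 h (14.1%) and for 4 in FosBcKO at 6 h (22.0%).

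The lowest FDR among these comparisons was that of Per2 in FosBcKO at 6 h, which had 87.5 to 98.8 CPM against 58.9 to 68.2 CPM in WT. The log2 fold change was 0.63 (95% interval of the quasi-likelihood fit 0.25 to 1.01), with an FDR of 0.0706 in the exact test and 0.0304 in DESeq2, and the FDR ran from 0.0304 to 0.373 over all alternatives. In the same comparison the macrophage gene Adgre1 was higher by 15.0-fold (exact test FDR = 2.82e-05), Itgam by 12.8-fold (0.001), Ptprc by 3.13-fold (0.00483), Lyz2 by 2.77-fold (0.00423) and the pigment cell gene Tyrp1 by 3.17-fold (0.00431), while the rod gene Sag was at 0.407 of its WT level (0.0489). The remaining named leukocyte marker, Cd68, was at 0.703 of its WT level and not called (0.767). In WT at 6 h Adgre1 had only 4, 2 and 0 reads and Itgam 1, 0 and 2, so their fold changes rest on few reads. The part of these cell types in the FosBcKO values at 6 h was not tested. Per1 was also higher in each FosBcKO library at 6 h than in each WT library, 322 to 441 against 269 to 289 CPM, with a log2 fold change of 0.46 (FDR = 0.348). Cry1 and Arntl were lower in each FosBcKO library at 6 h, with log2 fold changes of -0.28 (FDR = 0.633) and -0.44 (FDR = 0.355). In Egr1KO at 6 h, Per1 and Ciart were lower in each library, by log2 fold changes of -0.36 (FDR = 0.723) and -0.46 (FDR = 0.755). Nr1d2 in FosBcKO at 0 h stood at -0.40 (95% interval -0.73 to -0.07, FDR = 0.834). None of these passed. The 95% intervals for Arntl at 6 h ran from -0.88 to -0.01 in FosBcKO and from -0.89 to 0.07 in Egr1KO.

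Whether the response to injury itself differed from WT was tested as an interaction over all 18 libraries. By the quasi-likelihood F-test 0 of 8 members and 0% of 17469 genes were called in either knockout, and DESeq2 called 0 members. The 1 member at an unadjusted p under 0.05 was Per1 in Egr1KO, where the log2 change at 6 h was 0.73 lower than in WT (difference of -0.73, 95% interval -1.29 to -0.17, FDR = 0.719). In FosBcKO the largest differences from WT were those of Ciart (0.62, 95% interval -0.07 to 1.32, FDR = 0.774), Per2 (0.49, -0.26 to 1.24, FDR = 0.827) and Arntl (-0.46, -0.94 to 0.01, FDR = 0.738). That Cry1, Dbp and Ciart were called in WT and Egr1KO and not in FosBcKO, in the fits without a block, is therefore not shown to be a difference between genotypes, and the intervals leave room for differences in either direction.

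**Figure D4:**
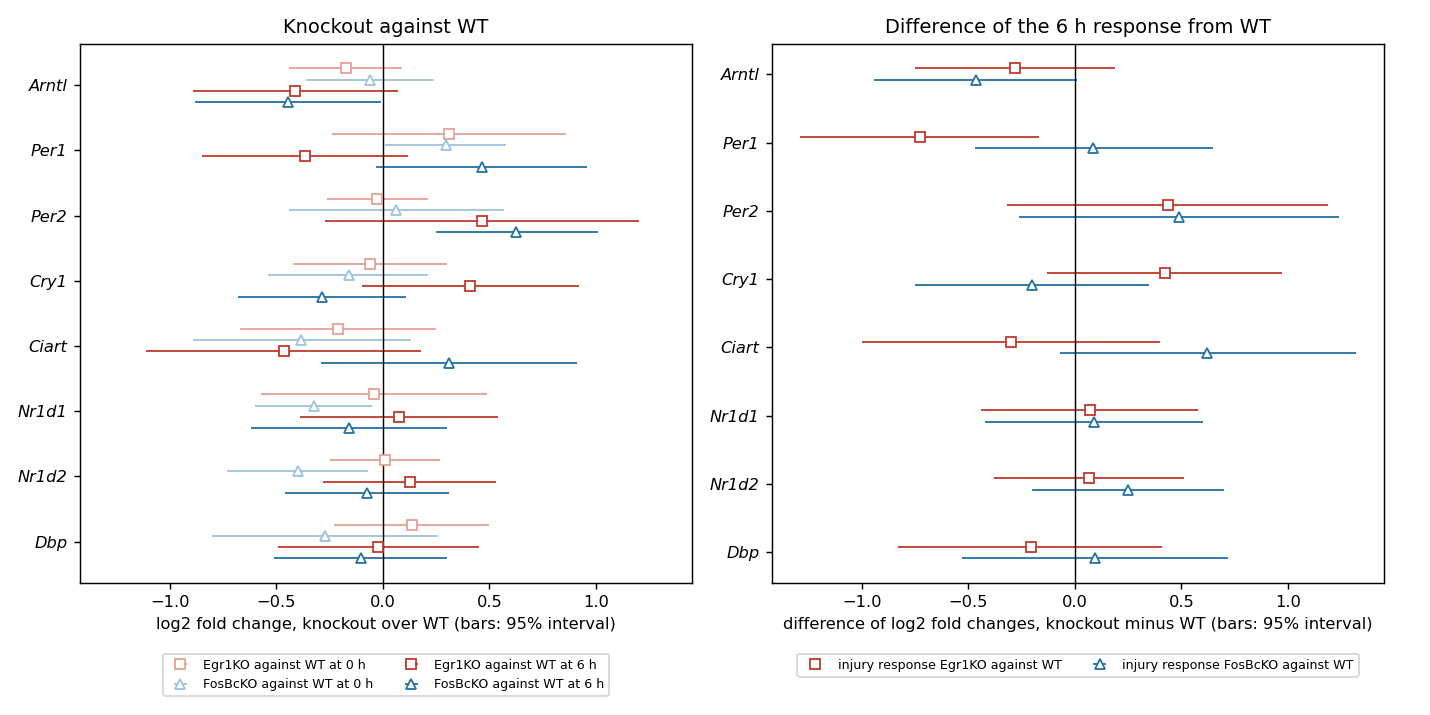
Left, log2 fold change of each clock gene in a knockout over WT (x axis) at 0 h (pale) and 6 h (dark), for Egr1KO (squares) and FosBcKO (triangles). Right, difference of the log2 fold change from 0 h to 6 h between knockout and WT. Bars are 95% intervals of the quasi-likelihood fit, and all symbols are open because 0 members passed an FDR of 0.05.

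The wider clock was read from a list of 23 further genes, 11 of which had a name. Names came from the study's own gene tables, which favour genes with low p-values in its comparisons, so the share of this list that was called is not independent evidence. Over all genotypes 6 of the 11 rose at 6 h, 3 fell and 2 did not pass, with a median log2 fold change of 0.46, where 28.9% of all genes were called higher and 22.6% lower with a median of 0.08. In WT 4 rose and 3 fell (16.5% and 9.72% of all genes), in Egr1KO 4 rose and 3 fell (12.1% and 9.04%), and in FosBcKO 5 rose and 1 fell (14.1% and 7.7%). The PAR bZIP factors Tef and Hlf, which share the D-box target sequence of Dbp, fell by 0.74 ± 0.10 (SE, edgeR FDR = 5.48e-06) and 0.58 ± 0.10 (FDR = 6.44e-05) on the log2 scale, beside 0.66 for Dbp. Nfil3, which represses the same D-box genes, rose by 1.33 ± 0.21 (FDR = 6.54e-05). Tef went from 175, 178 and 179 CPM at 0 h to 102, 86.2 and 113 at 6 h in WT, from 202, 231 and 213 to 149, 89.3 and 119 in Egr1KO and from 167, 196 and 166 to 120, 106 and 137 in FosBcKO. The 9 libraries at 0 h thus all lay above the 9 at 6 h. The call of Hlf was not made in FosBcKO alone (174, 175 and 179 CPM at 0 h, 140, 133 and 149 at 6 h, FDR = 0.111), although its libraries did not overlap.

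Noct, which encodes nocturnin and whose RNA is both rhythmic and acutely inducible, and Nampt, the rate-limiting enzyme of NAD salvage and a BMAL1 target, rose by 2.75 ± 0.23 (SE, edgeR FDR = 1.77e-07) and 1.37 ± 0.23 (FDR = 0.00014) on the log2 scale over all genotypes. The rise of Nampt was not called in FosBcKO alone (FDR = 0.0822), although its libraries did not overlap. Noct reached 266, 311 and 228 CPM in WT at 6 h from 40.5, 41.1 and 47.2 at 0 h. At 0 h it was lower in Egr1KO (23.1, 20.4 and 16.8 CPM) than in WT, with a log2 fold change of -1.11 and an exact test FDR of 7.55e-05. Timeless, a replication fork protein with a debated clock role in mammals, fell by 1.61 ± 0.28 (FDR = 0.000205) over all genotypes. Its fall was not called in FosBcKO alone (FDR = 0.227). The libraries there overlapped, with 19.5, 73.2 and 28.2 CPM at 0 h and 13.0, 14.7 and 30.4 at 6 h. Timeless was also lower in Egr1KO than in WT at 0 h (34.8, 28.8 and 46.4 against 78.6, 75.3 and 53.8 CPM, FDR = 0.0096). Bhlhe40, the E-box repressor DEC1, rose in FosBcKO from 261, 194 and 303 CPM at 0 h to 603, 736 and 687 at 6 h (log2 fold change of 1.44, FDR = 0.00196). It stood at 369, 210 and 283 CPM in WT at 6 h. The exact test called it higher in FosBcKO by 1.31 on the log2 scale (FDR = 0.000289). In that comparison 4 of 5 leukocyte markers and 1 of 4 pigment cell markers were also called higher. The part of these cell types in the level of Bhlhe40 was not tested. The interaction test called 0 of these 11 genes in either knockout.

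Rorb, a nuclear receptor of the family that activates Arntl, known for its role in retinal photoreceptors, rose by 2.62 ± 0.31 on the log2 scale (SE, edgeR FDR = 6.05e-06). It had 17.1, 11.8 and 22.1 CPM in WT at 0 h and 143, 99.5 and 189 at 6 h, 10.2, 12.1 and 10.3 against 29.0, 119 and 77.8 in Egr1KO, and 29.2, 11.6 and 11.9 against 110, 53.7 and 45.8 in FosBcKO. The rod markers Sag and Pde6b rose by 2.70 and 2.65 on the same scale, and the part of retinal RNA in the level of Rorb was not tested.

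**Figure D5:**
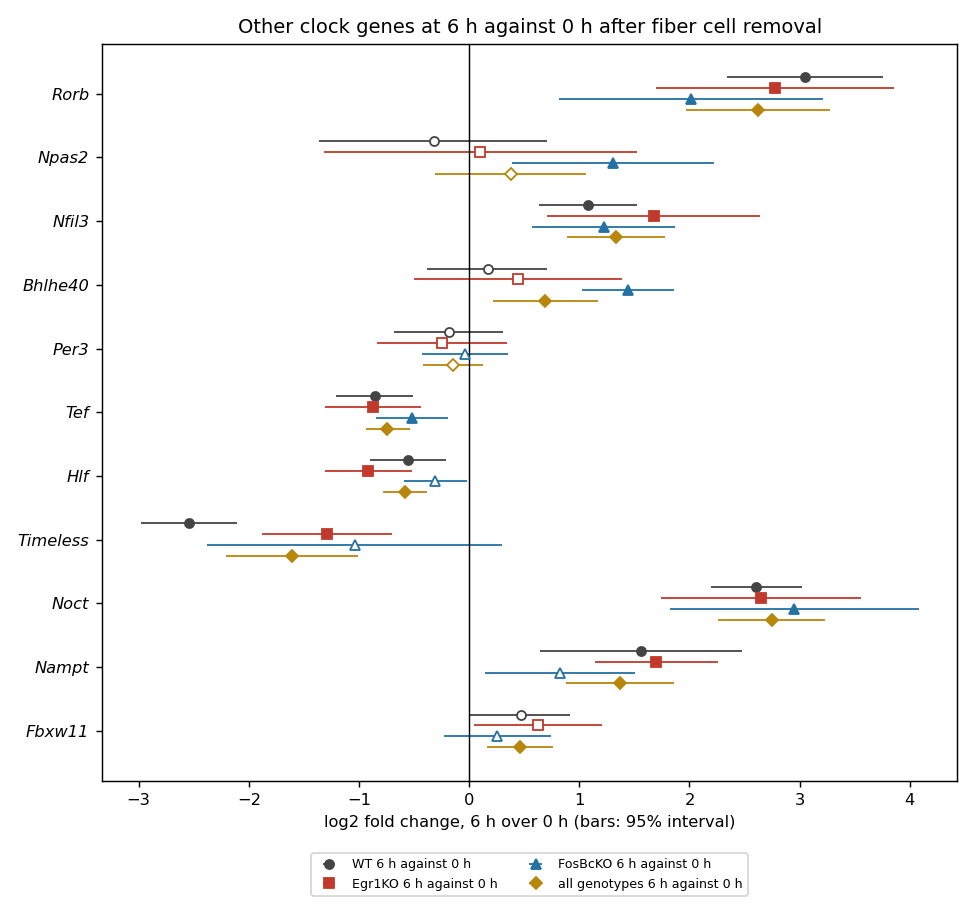
Log2 fold change at 6 h over 0 h (x axis) of the 11 named genes of the wider clock list in WT (circles), Egr1KO (squares), FosBcKO (triangles) and all genotypes together (diamonds), with 95% intervals. Filled symbols passed an FDR of 0.05. Tef and Hlf lie below 0 and Nfil3, Noct, Nampt and Rorb above 0 in each genotype.

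Signals that can reset Per1 and Per2 were read from 2 further lists. Of 9 immediate early genes of the acute response, all 9 rose over all genotypes, where 28.9% of all genes were called higher. Their median log2 fold change was 3.34, from Sik1 at 1.46 to Fosb at 7.14. The paper already reports Fosb, Junb, Egr1, Atf3, Nr4a1 and Ier2 as induced in WT at 6 h PCS. Names again came from the study's own gene tables, so the rise of this list is not independent evidence. Per1 (0.03) and Per2 (0.01), which belong to the same class of acutely inducible genes, stood near 0 in this fit, which averages over genotypes. Within WT, Egr1KO and FosBcKO, Per1 stood at 0.21, -0.50 and 0.35 and Per2 at -0.33, 0.13 and 0.21. No time between 0 h and 6 h was sampled, so a rise that had passed by 6 h could not be seen. Of 7 glucocorticoid-responsive genes, 3 rose (Sgk1, Klf9 and Errfi1, by 1.13, 1.51 and 1.65 on the log2 scale), 2 fell (Fkbp5 and Tsc22d3, by 0.86 and 1.16) and 2 did not pass (Zbtb16 and Ddit4), so this list did not move in 1 direction. Over all genes 28.9% were called higher and 22.6% lower, 51.5% in all, so the number called is not particular to this list. Zbtb16 differed by genotype at 6 h: it had 46.1, 67.7 and 25.5 CPM in FosBcKO against 9.79, 5.40 and 11.4 in WT. The log2 fold change was 2.46 (exact test FDR = 1.28e-06), again where 4 of 5 leukocyte and 1 of 4 pigment cell markers were called higher. The part of these cell types in the level of Zbtb16 was not tested. In the same comparison 2 of the 9 acute response genes were higher in FosBcKO, Junb by 1.18 (FDR = 0.01) and Ier2 by 1.00 (FDR = 0.00772). Of all genes, 5.17% were called higher there.

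Finally, genes whose levels followed Dbp, Arntl and Per1 most closely were sought among 17468 others, by Pearson's r of log2 CPM over the 18 libraries. These values describe 18 libraries that share the contrast of 6 h with 0 h, and carry no test. Of the 3 genes nearest to Dbp, Castor2 (r = 0.868) and Asf1a (r = 0.859) had a name, and of those nearest to Arntl, Ralgapa2 (r = 0.876) and Rmdn3 (r = 0.858). Those nearest to Per1 included Shisa9 (r = 0.814) and Gm37652 (r = 0.813). No other member of the clock list was among them. After the group means were taken out, correlations between members ran from -0.37 (Cry1 with Per1) to 0.55 (Nr1d1 with Per1), and those of Arntl with Dbp and Nr1d1 were -0.20 and 0.39.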

How the data were processed

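LEC RNA was sequenced by the authors as stranded, ribodepleted read pairs, aligned with HISAT2 and counted per Ensembl gene with HTSeq in union mode. The methods name the GRCm38 build and the labels GRCm39, and no coordinates are printed here. Each library has 1 deposited table, which holds the raw count of read pairs for every gene. HTSeq summary lines, 34.38% to 48.03% of pairs, were left out. Without molecular identifiers PCR copies are counted separately.

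Groups and replicate numbers came from the labels. Nothing in the deposited tables pairs IDs with names. Member names came from the gene IDs chosen, 7 of 8 of which the study's supplementary tables also pair with the same symbol. Other names came from those tables, which named 7021 IDs, and the table of RefSeq genes matched 0 IDs. The members and lists were chosen with earlier results of these data known. All 8 members are described, and of the wider clock list up to 8 genes that passed in a time or genotype comparison, lowest FDR first.

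Tests used edgeR 4.0.16 in R 4.3.3 with filterByExpr, TMM and robust dispersions, FDRs adjusted over all genes tested. Time effects and interactions used the quasi-likelihood F-test, and knockouts against WT the exact test, both named in the study's methods. SEs and 95% intervals come from the quasi-likelihood fit, also beside exact-test FDRs. Each test within a genotype or time used its 6 libraries. P-values measure the spread between pools of 5 capsules. CPM values were scaled by TMM over all 18 libraries. Alternatives were the other edgeR test, DESeq2 1.42.0, a replicate block, RLE size factors, no filter, 1 fit of all libraries, scaling without the 10 most abundant genes, a 2-fold minimum and leaving out each library. The scripts were tested on simulated data.

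To check pairing, deviations from group means were correlated between 0 h and 6 h libraries of the same number. In WT they were 0.102, 0.23 and 0.247, all over 0.1. In Egr1KO they were 0.02, 0.146 and 0.02, and in FosBcKO 0.16, 0.078 and 0.181. Between different numbers they were at most 0.088, and 8 of 9 libraries at 0 h correlated best with the 6 h library of their own number. The 0.1 limit was thus met in full in WT only. As mice gave 1 eye to each time, while no source says which libraries share mice, values with the block are given wherever it changes a call. Promoter motifs were not analysed here.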

Additional observations from a re-analysis of the deposited data

How the results depend on the processing

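Over 1360 refits of single clock genes, 1319 kept their side of the threshold, 19 gained a call and 22 lost one, and no called value changed sign. Ciart in WT, in Egr1KO and over all genotypes held its call throughout. With a fold minimum of 2, members called were 1 in WT and 1 over all genotypes. Leaving out each library gave 1 to 3 members in WT, 1 to 4 in Egr1KO, 0 to 1 in FosBcKO and 5 over all genotypes. For FosBcKO at 6 h against 0 h, which called 0 members, DESeq2 called 1 (Ciart, FDR = 0.0425), no filter on low counts 1 (Dbp, 0.0292) and 1 fit of all libraries 1 (Ciart, 0.0439). DESeq2 also called 1 member in FosBcKO against WT at 6 h (Per2). Without the filter 4 members were called over all genotypes. In WT 4 members, Arntl being added, were called with the replicate block, and as many by the exact test, DESeq2, RLE size factors, no filter, 1 fit of all libraries and scaling without the 10 most abundant genes. The block also gave 4 members in Egr1KO (Per1 added), 2 in FosBcKO (Cry1 and Ciart), 5 over all genotypes and 0 in each genotype and interaction comparison. For 0 h and 6 h libraries of a genotype, 6 of 9 pairs with the same number and 0 of 18 with different numbers exceeded a correlation of 0.1, and for knockout and WT libraries 3 of 12 and 6 of 24 did. Causes of these shifts were not tested. The counts of members under alternatives are given here without the share of all genes called in the same refit. With 3 libraries a group, changes inside the printed 95% intervals could not be resolved. No member had fewer than 64 reads in a library. Counting error is not negligible at the lowest counts, such as those of Ciart in Egr1KO at 6 h (64, 110 and 64 reads).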
